A study of Mus musculus with 8 samples.

Results

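Neurofilament and neuronal intermediate filament genes were followed across 8 RNA-seq libraries of the mouse dorsal lateral geniculate nucleus (dLGN), the part of the thalamus that relays retinal input to the cortex. The genes were chosen by name, as Nefl, Nefm, Nefh, Ina, Nes and Vim, and not by their values. Of these 6 symbols, 5 were among the 23116 genes of the expression matrix, and Nefh was not analysed here. Each library came from 1 mouse labelled C57BL/6J, at postnatal day 27 and in standard housing, and 4 mice carried the label WT and 4 the label KO for Fn14. Fn14, encoded by Tnfrsf12a, is the receptor for the cytokine TWEAK, and the study asked which transcripts differ in the nucleus when it is absent. WT and KO mice were littermates and both sexes were used, but no source used here states the sex or litter of each mouse or which part of the gene the KO allele lacks. Libraries are named by label and replicate number.

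Intermediate filaments are rope-like polymers of coiled-coil proteins. In axons of the rodent central nervous system, the light chain Nefl forms the filament core with the medium chain Nefm, the heavy chain Nefh and alpha-internexin (Ina), and the long phosphorylated tails of the medium and heavy chains are linked to axon calibre. During development, progenitors build filaments from vimentin (Vim) and nestin (Nes), young neurons express Ina early, and the light, medium and heavy chains accumulate as axons mature. Vim also serves as the filament protein of fibroblasts, endothelium, ependyma and immature astrocytes.

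Nefl and Nefm lie next to each other on chromosome 14 (GRCm38). Nefl runs from 68083863 to 68089095 on the plus strand. The RefSeq span of Nefm, from 68119545 to 68125004 on the minus strand, does not touch it, but in GENCODE M21 Nefm begins at 68082590, because the transcript Nefm-202 has exons there. These cover 1108 of the 3380 exonic bases of Nefl, or 32.8%. In the same annotation, the transcript Nt5c2-203 of the opposite strand covers 456 of the 3240 exonic bases of Ina. No source used here states whether the authors counted by strand, so reads of Nefl and Nefm, and of Ina and Nt5c2, may have been divided with error. Ina lies on chromosome 19, Nes on chromosome 3 and Vim on chromosome 2, and neither Nes nor Vim overlaps another annotated gene.

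RefSeq promoter sequence (GRCm38.p6) was at hand for 3 of the 6 symbols, and the 150 bases before the start of each are shown because Ina varied least over the libraries while Nes and Vim were lowest in the same pair of them. Capitals mark matches on either strand to TATAAA, the letters of a common promoter box, to CCAAT, another such box, or to GGGCGG, the GC box. The stretches are chr19:47014531-47014680 for Ina, chr3:87970943-87971092 for Nes and chr2:13574161-13574310 for Vim, all on the plus strand.
Ina: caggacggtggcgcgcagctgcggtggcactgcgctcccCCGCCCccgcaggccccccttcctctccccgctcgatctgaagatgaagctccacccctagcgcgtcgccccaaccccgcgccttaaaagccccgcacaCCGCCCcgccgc
Nes: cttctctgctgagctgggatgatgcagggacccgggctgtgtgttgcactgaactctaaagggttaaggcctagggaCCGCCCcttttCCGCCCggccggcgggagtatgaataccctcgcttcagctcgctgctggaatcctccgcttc
Vim: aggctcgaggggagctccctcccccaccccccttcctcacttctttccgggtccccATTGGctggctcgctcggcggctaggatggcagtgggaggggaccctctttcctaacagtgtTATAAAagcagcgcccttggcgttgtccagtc
Vim has TATAAA at −32 to −27 from its start and the reverse complement of CCAAT at −94 to −90. Ina and Nes each have 2 matches to GGGCGG, all on the opposite strand. Over the 32851 promoter windows of the same length, 7.57% hold TATAAA, 24.5% hold CCAAT and 28.6% hold GGGCGG on either strand. No 2 of the matches overlap. The GC content was 74.0% in Ina, 60.7% in Nes and 62.7% in Vim, against a median of 54.0% over all windows.

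Values are TPM, a read share corrected for transcript length, so levels of different genes can be compared. Libraries differed in ways that bear on every value below. The myelin gene Mbp reached 11153 TPM in WT 1 and 13566 TPM in WT 2, and in the other 6 libraries it ran from 34.4 to 51.3 TPM. Those 6 include all 4 KO libraries, so each KO minus WT difference is also given without WT 1 and WT 2 for the members. Tnfrsf12a was at 4.78, 5.48, 3.67 and 0.82 TPM in WT 1 to WT 4 and at 2.95, 1.12, 1.32 and 1.86 TPM in KO 1 to KO 4, so the library labelled WT 4 lay below every KO library, against its label. All of these values are low, and the groups overlapped. The KO minus WT difference of Tnfrsf12a was −0.63 (95% interval −1.62 to 0.36) in log2(TPM + 1) and did not pass in limma (adjusted p = 0.452). It was −0.09 without WT 1 and WT 2, so this RNA did not separate the labels. WT 3 had the lowest summed level of 4 thalamus markers (Tcf7l2, Gbx2, Lef1 and Slc17a6), at 230 TPM against 713 to 1492 TPM in the other 7 libraries. Tcf7l2 and Gbx2 were each lowest in WT 3. Both were next lowest in WT 1 and WT 2, with Tcf7l2 at 250 and 253 TPM and Gbx2 at 10.8 and 13.3 TPM. The lowest of the remaining libraries was KO 3, at 529 and 31.7 TPM. Lef1 was lowest in KO 3, at 8.20 TPM against 12.4 TPM in WT 3, and Slc17a6 in KO 1, at 168 TPM against 169 TPM. Between 14784 and 16055 genes reached 1 TPM per library. The depth of each library is unknown, so no counting interval is given. In bulk tissue, fewer cells of a type and less RNA per cell cannot be told apart.

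Nefl and Ina were among the most abundant transcripts of the nucleus. In every library Ina stood at or above the 97.1 percentile of the 15967 tested genes and Nefl at or above the 92 percentile. Nefl averaged 412 ± 183 TPM in WT and 454 ± 140 TPM in KO, and Ina averaged 391 ± 96.1 and 526 ± 95.8 TPM (SD, n = 4 each, here and below). Vim followed at 137 ± 113 (WT) and 272 ± 99 TPM (KO), then Nefm at 90.1 ± 65.6 and 65.1 ± 26.7 TPM, and Nes at 13 ± 10.7 and 26.1 ± 8.85 TPM. Neighbours in this order were not all separated within libraries. Ina exceeded Nefl in 5 of 8 libraries and Vim exceeded Nefm in 6, whereas Nefl exceeded Vim in 7, and Nefm exceeded Nes in 7.

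**Figure D1:**
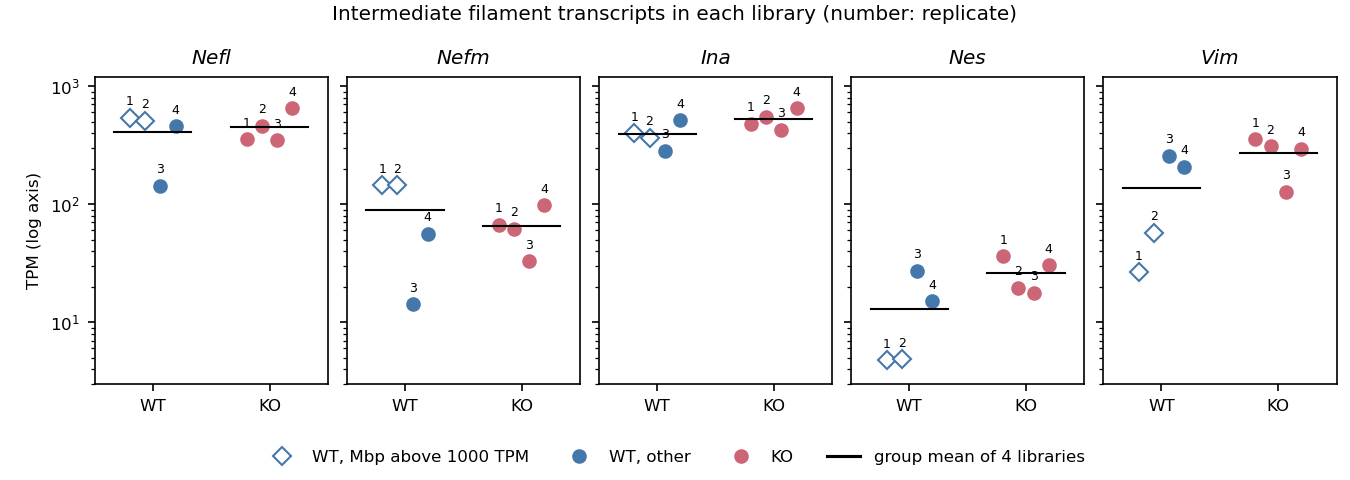
TPM on a log axis for each member gene in each of the 8 libraries, with the replicate number at each point and a line at the mean of the 4 libraries of a group. WT 1 and WT 2, drawn as open diamonds, lie above all other libraries for Nefm, at 145 TPM each, and below all others for Nes and Vim.

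Nefl, the core subunit, was at 540, 509, 143 and 457 TPM in WT 1 to WT 4 and at 357, 464, 347 and 649 TPM in KO 1 to KO 4. WT 3 was the lowest of all 8 libraries and KO 4 the highest, and the groups overlapped. The KO minus WT difference was 0.26 (SE 0.44, 95% interval −0.74 to 1.27) on the log2(TPM + 1) scale and did not pass in limma (adjusted p = 0.74). Without WT 3 the difference was −0.19 (adjusted p = 0.595), and without WT 1 and WT 2 it was 0.78 (adjusted p = 1.0).

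Nefm, whose tail extends from the filament, was at 145, 145, 14.2 and 56.3 TPM in WT 1 to WT 4 and at 67, 61.9, 33.02 and 98.3 TPM in KO 1 to KO 4. WT 1 and WT 2 were above all other libraries, WT 3 was again the lowest, and the WT libraries spanned 10.3-fold against 2.98-fold in KO. The KO minus WT difference was −0.09 (SE 0.72, 95% interval −1.73 to 1.55) on the log2 scale and did not pass in limma (adjusted p = 0.95). It was 1.06 without WT 1 and WT 2, 0.30 without WT 1, 0.29 without WT 2 and 0.20 without KO 3, and it was −0.79 without WT 3, so its direction rests on which libraries are included.

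Ina, the alpha-internexin gene, varied least. It was at 399, 366, 284 and 516 TPM in WT 1 to WT 4 and at 479, 549, 427 and 648 TPM in KO 1 to KO 4. WT 3 was the lowest and KO 4 the highest, as for Nefl, and the library labelled WT 4 lay within the KO range. The KO minus WT difference was 0.44 (SE 0.22, 95% interval −0.06 to 0.94) on the log2 scale, and it did not pass in limma (adjusted p = 0.429), and neither did it by exact permutation of the group labels (two-sided p = 0.114, where 70 arrangements allow no p below 0.0286). Without WT 1 and WT 2 it was also 0.44.

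Nes, which encodes the progenitor filament protein nestin, was at 4.77, 4.87, 27.4 and 15.1 TPM in WT 1 to WT 4 and at 36.3, 19.6, 17.8 and 30.5 TPM in KO 1 to KO 4. WT 1 and WT 2 were below all other libraries, while WT 3 lay within the KO range. The KO minus WT difference was 1.22 (SE 0.54, 95% interval −0.01 to 2.45) on the log2 scale and did not pass in limma (adjusted p = 0.429). It was 0.28 without WT 1 and WT 2.

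Vim, the vimentin gene, was at 26.6, 57.2, 258 and 208 TPM in WT 1 to WT 4 and at 354, 311, 128 and 294 TPM in KO 1 to KO 4. WT 1 and WT 2 were again the lowest, and KO 3 lay below WT 3 and the library labelled WT 4. The KO minus WT difference was 1.40 (SE 0.72, 95% interval −0.24 to 3.04) on the log2 scale, did not pass in limma (adjusted p = 0.429), and was 0.13 without WT 1 and WT 2.

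Across all genes, limma called 0 of 15967 higher and 0 lower in KO at an adjusted p of 0.05 (0.0% each), and 0 of the 5 members passed. Before adjustment, 851 genes had a p under 0.05 with KO higher and 372 with KO lower, or 5.33% and 2.33%, and 0 of the 5 members were among them. That split was 673 against 541 with trimmed-mean-of-M-values (TMM) factors and 750 against 555 after quantile normalization, and it was 164 against 177 without WT 1 and WT 2. The groups did not overlap for 2.42% of genes with KO higher and for 0.921% with KO lower, and they overlapped for all 5 members. Estimates were above 0 for 4 members and below 0 for Nefm. Over all tested genes, 9604 were above 0 and 6363 below, which is the background for such counts in the lists below. The median difference of all tested genes was 0.102 on the deposited scale and −0.01 with TMM factors, and none of the 5 members changed sign under that scaling or under quantile normalization.

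**Figure D2:**
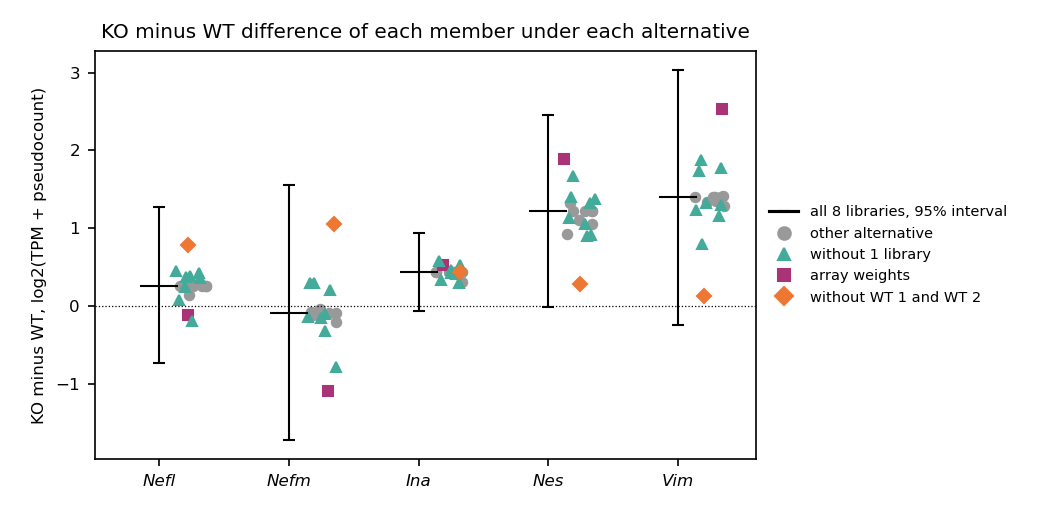
KO minus WT difference in log2(TPM + pseudocount) for each member gene. The black bar is the value with all 8 libraries and its 95% interval, and the points are 18 alternatives per gene, of which those without WT 1 and WT 2 (orange diamonds) lie at 0.78 for Nefl, 1.06 for Nefm, 0.44 for Ina, 0.28 for Nes and 0.13 for Vim.

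Against the libraries with Mbp above 1000 TPM, the members took different sides. Nefm was higher in WT 1 and WT 2 than in any other library, Nes and Vim were lower, and Nefl and Ina lay inside the range of the other 6. The other 6 ran from 14.2 to 98.3 TPM for Nefm, from 15.1 to 36.3 TPM for Nes and from 128 to 354 TPM for Vim. These are descriptions without a test, because Mbp, which defines the split, was measured in the same libraries. Over all tested genes, WT 1 and WT 2 were both above the other 6 for 22.5% and both below for 40.5%, so 1 of 5 members above and 2 of 5 below are close to the shares of genes at large. Those shares were 31.4% and 29.1% with TMM factors and 29.3% and 29.4% after quantile normalization, with the same 3 members outside the range.

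The makeup of the neuronal filament transcripts also differed between libraries. Taking Nefl, Nefm and Ina together, their summed level was 1085, 1019, 441 and 1029 TPM in WT 1 to WT 4 and 902, 1075, 807 and 1395 TPM in KO 1 to KO 4. Nefm made up 13.4% and 14.2% of that sum in WT 1 and WT 2 and between 3.21% and 7.42% in the other 6. Ina made up 36.8% and 35.9% in WT 1 and WT 2, between 46.5% and 53.1% in the library labelled WT 4 and the KO libraries, and 64.4% in WT 3. WT 3, with the lowest sum, therefore also had the most Ina-weighted mixture. It was the library with the lowest summed thalamus markers too, though not the lowest for Lef1 or Slc17a6 alone. The part of that difference in the result was not tested.

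**Figure D3:**
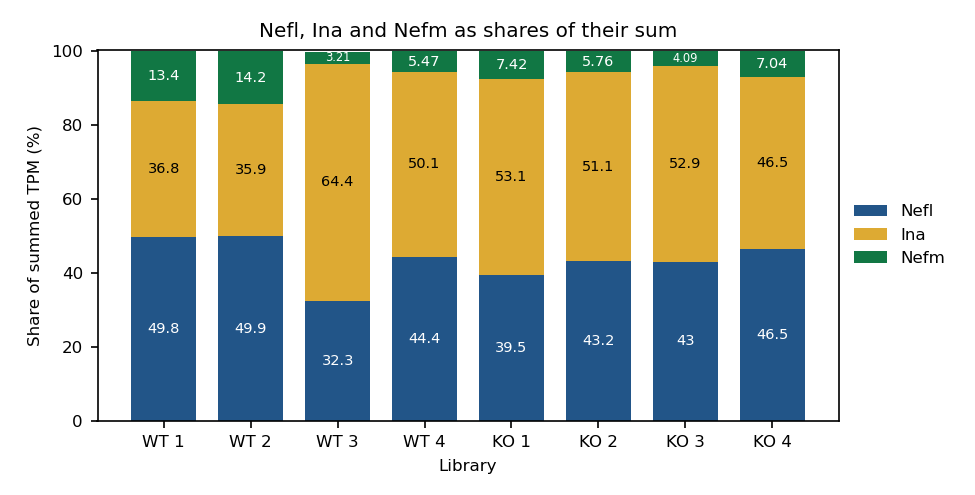
Stacked bars of Nefl, Ina and Nefm as a percentage of their summed TPM in each library, starting at 0. Nefm takes 13.4% and 14.2% in WT 1 and WT 2 and no more than 7.42% elsewhere, while Ina takes its largest share, 64.4%, in WT 3.

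Ratios of TPM between members do not depend on how a library is scaled. Differences in log2(TPM + 1) can depend on it for low genes such as Nes. The Nefm to Nefl ratio was 0.269, 0.284, 0.0993 and 0.123 in WT 1 to WT 4 and 0.188, 0.133, 0.095 and 0.151 in KO 1 to KO 4, with WT 1 and WT 2 above the rest. The Ina to Nefl ratio was 0.738, 0.719, 1.99 and 1.13 in WT and 1.34, 1.18, 1.23 and 0.999 in KO, with WT 1 and WT 2 below the rest. The Vim to Nes ratio was 5.57, 11.7, 9.44 and 13.8 in WT and 9.74, 15.9, 7.18 and 9.63 in KO, and WT 1 and WT 2 did not stand apart in it together. The Vim to Nefl ratio was 0.0491 and 0.112 in WT 1 and WT 2 and ran from 0.368 to 1.81 in the other 6. Between KO and WT, the differences on the log2(TPM + 1) scale were −0.35 for Nefm to Nefl, 0.18 for Ina to Nefl and 0.18 for Vim to Nes. In exact two-sided permutation tests these gave p = 0.429, p = 0.686 and p = 0.657, each 0.686 after Benjamini-Hochberg adjustment over the 3 ratios tested. The Vim to Nes difference was 0.09 with a pseudocount of 0.1 TPM and 0.41 with a pseudocount of 5 TPM.

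The summed markers of progenitors, young neurons and endothelium were lowest in WT 1 and WT 2, as Nes and Vim were, and so was the choroid plexus sum given below. The summed level of 5 of 5 progenitor markers (Sox2, Pax6, Hes5, Mki67 and Top2a) was 94.3 and 103 TPM in WT 1 and WT 2 and ran from 224 to 293 TPM in the other 6. Sox2 alone was not lowest there, since it was at 57.3 and 64 TPM against 56.03 TPM in KO 3. Markers of young neurons (4 of 4 measured, among them Dcx and Sox11) summed to 789 and 670 TPM against 2412 to 3527 TPM. Endothelial markers (Cldn5, Pecam1, Flt1 and Tek, 4 of 4) summed to 77.9 and 105 TPM against 112 to 137 TPM. Of these 4, Cldn5 was lowest in WT 1 and WT 2, Flt1 was highest there, Pecam1 lay within the range of the others in both, and Tek did so in WT 2. By group, these sums ran from 94.3 to 293 TPM in WT and from 224 to 268 TPM in KO for progenitors, from 670 to 3527 and from 2730 to 3423 TPM for young neurons, and from 77.9 to 136 and from 118 to 137 TPM for endothelium.

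Fibroblast markers (Col1a1, Col1a2, Dcn and Lum, 4 of 4) summed to 67.9, 146, 185 and 151 TPM in WT 1 to WT 4 and to 363, 266, 79.4 and 419 TPM in KO 1 to KO 4. KO 3 was the KO library lowest in these markers and in Vim. It was also the lowest KO library for Nefl, Nefm, Ina and Nes. The same held for the summed progenitor, young neuron, endothelium, ependyma, choroid plexus and thalamus markers, so this match is not particular to fibroblasts. KO 3 was not the lowest of KO for the neuron, astrocyte, microglia, mural cell or oligodendrocyte sums. Ependymal markers (Foxj1, Ccdc153 and Tmem212, 3 of 3) summed to 187 TPM in WT 3 and 64.8 TPM in KO 1, and to between 6.84 and 15.7 TPM in the other 6. Tmem212 was listed at 0 in WT 1, WT 2, the library labelled WT 4 and KO 3, and no other marker of the lists named here was at 0 in any library. Mural cell markers (3 of 4 measured) summed to between 79.5 and 119 TPM in WT and between 78.4 and 104 TPM in KO, and the 2 measured astrocyte markers (Aldh1l1 and Slc1a3) to between 172 and 354 and between 167 and 255 TPM. Choroid plexus markers (Ttr, Kl and Folr1, 3 of 3) summed to 2.45 to 107 TPM in WT and 23.6 to 414 TPM in KO, and microglia markers (4 of 4) to 37.0 to 124 and 37.3 to 49.1 TPM. By the Mbp split, choroid plexus markers summed to 5.46 and 2.45 TPM in WT 1 and WT 2 against 8.77 to 414 TPM in the other 6. Kl alone did not stand apart in that way. Microglia markers summed to 112 and 124 TPM in WT 1 and WT 2 against 37.0 to 49.2 TPM. Mural cell markers summed to 119 and 112 TPM in WT 1 and WT 2 against 78.4 to 104 TPM. Of the mural cell markers, Rgs5 was highest in WT 1 and WT 2 but Kcnj8 was lowest. The part of these cell types in the Nes and Vim values was not tested.

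Neuron markers (Snap25, Rbfox3, Syt1 and Slc17a6, 4 of 4) summed to 3439 and 3039 TPM in WT 1 and WT 2 and to between 544 and 1043 TPM in the other 6, the same side as Nefm. That sum is carried by Snap25 and Syt1, whereas Rbfox3 ran from 40.8 to 63.8 TPM over all libraries. The summed microglia, mural cell and oligodendrocyte markers were also highest in WT 1 and WT 2. The part of neurons or of these other cell types in the Nefm values was not tested.

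**Figure D4:**
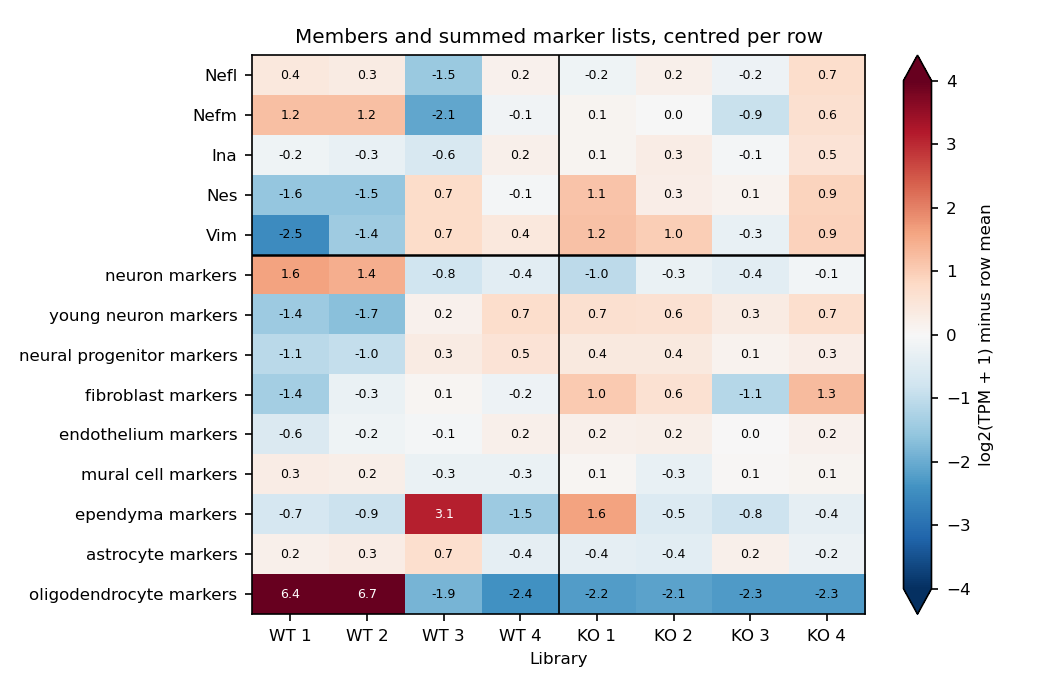
Level of each member gene and of the summed marker lists in each library, as log2(TPM + 1) minus the mean of its row, with a line between members and marker lists and a line between WT and KO. The thalamus, microglia and choroid plexus lists are not drawn. Nes and Vim are lowest in WT 1 and WT 2, as are the young neuron, neural progenitor and endothelium markers, while Nefm and the neuron, mural cell and oligodendrocyte markers are highest there.

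Profiles of other genes were ranked by the root mean square difference from each member in log2(TPM + 1), after centring each gene over the 8 libraries, so a small value means a close match in shape and size. All of these libraries share the split described above. Among the members, the closest pairs were Nefl with Ina at 0.44, Nes with Vim at 0.48 and Nefl with Nefm at 0.55, and the farthest pair was Nefm with Vim at 1.98. Of all tested genes, the nearest to Nefl were Scrt2 at 0.20, 1700020I14Rik at 0.21 and Adcy1 at 0.24. The nearest to Nefm were Epha4 at 0.20, Sema7a at 0.27 and Rtn4rl1 at 0.29, and those to Ina were 1700001L05Rik at 0.06, Fgf13 at 0.06 and Slc16a7 at 0.10. Epha4 ran from 33.3 to 252 TPM and Fgf13 from 111 to 257 TPM, each lowest in WT 3. The nearest to Nes were 4930444P10Rik at 0.20, Uhrf1 at 0.20 and Kif23 at 0.21, and those to Vim were Bmp3 at 0.25, Rcn1 at 0.26 and Dock11 at 0.26.

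Other intermediate filament genes were compared in the same way. Of 14 listed, 2 (Gfap and Bfsp2) were not analysed here and 10 of the other 12 reached the filter, a mean of 1 TPM over the 8 libraries. None passed, and 9 of the 10 had estimates above 0 and 1 below, where 9604 of the 15967 tested genes were above 0. The list median was 0.61 against 0.10 for all tested genes, and it was 0.08 without WT 1 and WT 2. Prph, the peripherin gene of peripheral neurons, was near the limit of the data, listed at 0 in WT 1, at 0.57 TPM in WT 2 and from 1.39 to 3.13 TPM elsewhere. Lmnb1, which encodes a lamin of the nuclear envelope, was at 9.72, 7.99, 66.1 and 65.3 TPM in WT 1 to WT 4 and at 106, 68.8, 69.2 and 75.6 TPM in KO. Its groups did not overlap, as for 2.42% of all tested genes with KO higher. Lmnb1 was lowest in WT 1 and WT 2, as were 40.5% of all tested genes (29.1% with TMM factors). Lmnb1 was named for its small p within the list, so its separation adds no support of its own. Its log2 difference was 1.64 (SE 0.70, adjusted p = 0.429 in limma), and 0.26 without WT 1 and WT 2. Lmnb2 was at 25.5 ± 8.30 and 34.8 ± 3.08 TPM, with a log2 difference of 0.49, or 0.09 without WT 1 and WT 2. Synm, which encodes the large filament partner synemin, went the other way, at 33.3, 29.7, 17.7 and 7.73 TPM in WT and 11.7, 7.70, 10.1 and 8.77 TPM in KO, a log2 difference of −0.96 (SE 0.41, adjusted p = 0.429 in limma) that was −0.29 without WT 1 and WT 2.

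Proteins that link, move and turn over filaments gave no call either. Of the plakins, which crosslink filaments to other cytoskeleton, 4 of 6 were tested, 2 above 0 and 2 below. Dst averaged 213 ± 79.8 TPM (WT) and 143 ± 18.6 TPM (KO), Plec 69.6 ± 23.9 and 47.1 ± 10.6 TPM, and Macf1 273 ± 60.7 and 310 ± 28.1 TPM. Dst and Plec were highest, and Macf1 lowest, in the libraries with Mbp above 1000 TPM. Log2 differences were −0.50 for Dst, −0.51 for Plec and 0.21 for Macf1. Leaving out WT 1 and WT 2 changed these to −0.02, −0.08 and −0.07. Of the 10 transport motors, 3 were above 0 and 7 below, with a median of −0.34. The kinesin heavy chain Kif5a, which carries neurofilaments along axons, reached 704 and 691 TPM in WT 1 and WT 2 and stayed from 180 to 283 TPM elsewhere. Kif5b and the myosin gene Myo5a had log2 differences of −0.54 and −0.50, or 0.05 and 0.06 without WT 1 and WT 2. Without WT 1 and WT 2 the median of the motors was 0.08.

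Neurofilament kinases, phosphatase subunits and turnover genes numbered 18, all tested, with 14 above 0 and 4 below. Of the 15967 tested genes, 9604 were above 0. The list median was 0.15 against 0.10 for all tested genes, and it was 0.02 with TMM factors and 0.10 without WT 1 and WT 2. None passed. Cul3, a scaffold of ubiquitin ligases, was at 124 ± 7.82 and 156 ± 12.6 TPM, with a log2 difference of 0.33 (SE 0.12, adjusted p = 0.429 in limma) and 0.25 without WT 1 and WT 2. Trim2, a ubiquitin ligase reported to bind the light chain in mouse, was at 167 ± 27.5 and 225 ± 10.8 TPM, with a log2 difference of 0.44 (SE 0.15) and 0.25 without them. For Cul3 and Trim2 the groups did not overlap, as for 2.42% of all tested genes with KO higher. Both genes were lowest in WT 1 and WT 2, as were 40.5% of all tested genes (29.1% with TMM factors). They were named for their small p within the list, so their separation adds no support of its own.

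Microtubule-associated proteins, which share the axon with neurofilaments, had 4 of 5 genes above 0, where 9604 of the 15967 tested genes were. The list median was 0.74, or 0.11 without WT 1 and WT 2, and none passed. Mapt, the tau gene, reached 215 and 219 TPM in WT 1 and WT 2 and 853 to 1315 TPM elsewhere. Mtap1b (Map1b) was at 929 ± 336 TPM (WT) and 1496 ± 214 TPM (KO), with a log2 difference of 0.74, and Mtap6 (Map6) had 0.81, or 0.35 and 0.11 without WT 1 and WT 2. Genes of the axonal node and paranode had 7 of 8 tested genes below 0, a median of −0.56, or −0.02 without WT 1 and WT 2, and none passed, while 2 of the 10 listed were not analysed here. For 7 of the 8, WT 1 and WT 2 were above every other library, as for Nefm and for 22.5% of all tested genes (31.4% with TMM factors). Nfasc, the neurofascin gene, was at 378 and 402 TPM there against 69.7 to 96.7 TPM, Cntnap1 at 221 and 199 TPM against 13.3 to 37.1 TPM, and Kcna2, an axonal potassium channel gene, at 200 and 174 TPM against 14.8 to 27.4 TPM.

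**Figure D5:**
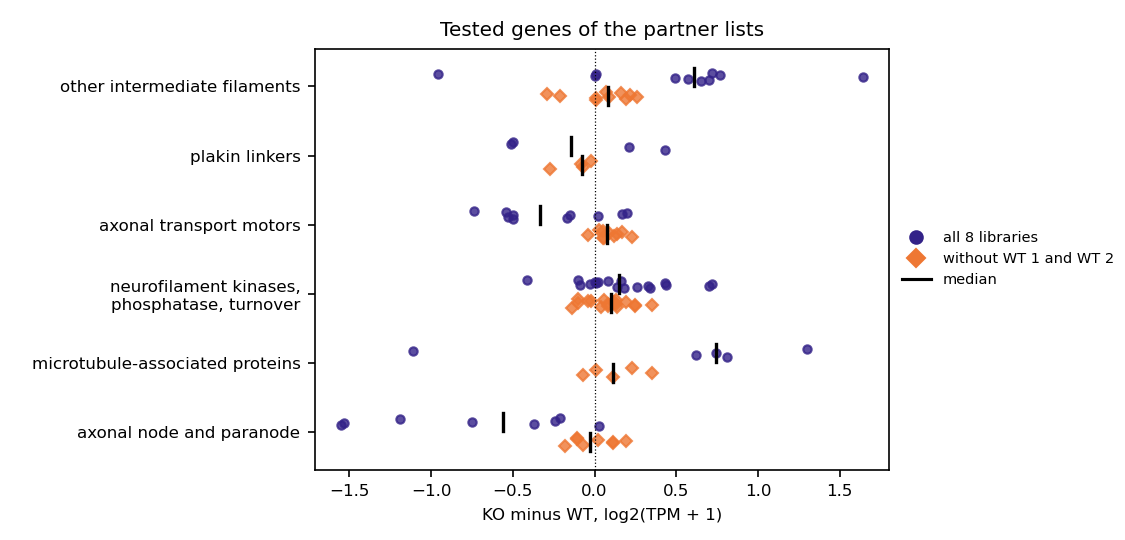
KO minus WT difference in log2(TPM + 1) for each tested gene of the 6 partner lists, with all 8 libraries (circles) and without WT 1 and WT 2 (diamonds), and a bar at each median. The medians run from −0.56 to 0.74 with all libraries and from −0.08 to 0.11 without WT 1 and WT 2.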

How the data were processed

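Total RNA of microdissected dLGN was depleted of ribosomal RNA, fragmented and sequenced on an Illumina NextSeq 500, with each mouse a separate replicate, per the labels' protocols. The authors deposited 1 matrix in TPM, as its sheet name says. BWA, edgeR 3.14.0 and the builds GRCm38 and mm10 are named in the submitters' processing notes, while no source used here states the counting settings or annotation. TPM values summed to 969537 (WT 1), 968958 (WT 2) and 996566 to 997426 (the rest), with depth unknown. The authors' columns of group means were left aside. P-values are set against the spread between mice, which in WT includes the gap of WT 1 and WT 2 from the rest.

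Values were analysed as log2(TPM + 1), which understates changes of low genes. The 15967 genes whose mean over all libraries reached 1 TPM were fitted with limma 3.58.1 in R 4.3.3 (trend and robust variance, two-sided), KO against WT with no covariate, with Benjamini-Hochberg adjustment over all 15967 genes at 0.05. The step was tested on simulated data with noise drawn independently for each gene and library. That simulation held no shared gap of WT 1 and WT 2, so it cannot show how the fit behaves with one. Ratios were tested by exact permutation in Python 3.11.15, and 2 ratios planned with Nefh were not computed. The split by Mbp was described only. Older symbols were matched through RefSeq.

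The members and lists were chosen with earlier results of these data known. Genes named are the members, Tnfrsf12a, Mbp, Prph, the cell type markers, up to 3 of smallest p per partner list and the 3 nearest profiles per member. A gene that this rule names is not reported here. Alternatives covered the pseudocount, the filter, the scaling, the variance model, array weights, a replicate block and left-out libraries. Figures were drawn with matplotlib 3.10.9.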

Additional observations from a re-analysis of the deposited data

Results flagged for a closer look

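In each group of 4 libraries, a library was looked at again where its gap to the nearest other, as a share of the group's range in log2(TPM + 1), exceeded Dixon's 95% value. The members, the 3 tested ratios, the other named genes and the marker sums made 196 such groups, of which 12 exceeded it, and chance exceeds it in about 1 of 20 groups. Among the members, Nefl was lowest in WT 3 with a gap of 0.873 of the WT range, and so was its near profile 1700020I14Rik with 0.888. The ependymal marker Tmem212 was highest in WT 3 with a gap of 1.0, being listed at 0 in the other 3 WT libraries. In KO 4, Trim2 (0.897) and the microglia marker Csf1r (0.871) were the highest of KO. In KO 2, Nfasc (0.934), the mural cell marker Rgs5 (0.913) and the mural cell marker sum (0.846) were the lowest of KO. In KO 3, the fibroblast marker Lum (0.874), Rcn1 (0.862), which is near Vim in profile, and the endothelium marker sum (0.864) were the lowest of KO. The ependymal marker Ccdc153 was highest in KO 1, with a gap of 0.861.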

How the results depend on the processing

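Each member kept its direction under both other scalings, both other pseudocounts and both other filters. With array weights per library, limma called 10376 genes. The weights were 1.71 for WT 1, 3.43 for WT 2, 0.13 for WT 3 and 0.138 for the library labelled WT 4, and from 0.986 to 5.98 in KO. The WT side of this fit thus rested mainly on WT 1 and WT 2, so it cannot tell the KO label from the Mbp split. Its log2 differences were −0.12 for Nefl, −1.09 for Nefm (adjusted p = 0.0136 in limma), 0.52 for Ina (adjusted p = 0.00545), 1.89 for Nes (adjusted p = 0.000266) and 2.53 for Vim (adjusted p = 0.000386). Without WT 1 and WT 2, 2 genes were called (Mir135a-2 and Mir199a-2), and with the plain variance 1 (Snora62), all named after their values were seen. In that smaller fit Nefl was at 0.78, Nefm at 1.06, Nes at 0.28, Vim at 0.13, the Nefm to Nefl ratio at 0.28, the Ina to Nefl ratio at −0.34 and the Vim to Nes ratio at −0.15. Leaving out 1 library at a time gave 0 to 1 called genes (Mir666 without KO 3), −0.19 to 0.45 for Nefl, −0.79 to 0.30 for Nefm, 0.30 to 0.58 for Ina, 0.90 to 1.67 for Nes and 0.80 to 1.88 for Vim. The ratios ran from −0.61 to −0.13 for Nefm to Nefl, −0.003 to 0.49 for Ina to Nefl and −0.11 to 0.37 for Vim to Nes. Nefl was at −0.19 without WT 3, Nefm at 0.30 without WT 1, 0.29 without WT 2 and 0.20 without KO 3, the Ina to Nefl ratio at −0.003 without WT 2, and the Vim to Nes ratio at −0.11 without WT 1 and −0.03 without KO 2. The cause was not tested. Same-numbered libraries correlated in their deviations from group means at −0.10 to 0.074 across genes, and not every library correlated best with its own number. In WT these deviations include the gap of WT 1 and WT 2 from the rest. The correlations therefore cannot show whether same-numbered mice were littermates. With a replicate block limma called 0 genes and the members kept their estimates (Nefl 0.26, Nefm −0.09, Ina 0.44, Nes 1.22, Vim 1.40). With depth unknown, the precision of low values such as Prph and Nes cannot be stated.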
